A study of Mus musculus with 12 samples.

Results

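Cadherins are the adhesion molecules through which a cell holds on to its neighbor, and the 93 genes described here are every gene in the count table of these aortic SMCs with a symbol of the form Cdh or Pcdh followed by a number or cluster name, of 52636 genes in all. They comprise 23 cadherins (5 classical cadherins of type I, 13 of type II, and 5 others) and 70 protocadherins (12 encoded singly across the genome and 58 in 3 neighboring clusters, with 14 alpha, 22 beta, and 22 gamma genes). Messenger RNA was measured in SMCs sorted by flow cytometry from 2 genotypes of mice, with 3 animals each, and from 2 segments of each aorta, the ascending aorta with the arch and the descending thoracic aorta, which gave 4 groups and 12 libraries. GFPiSMC mice carry Myh11-CreERT2, a tamoxifen-inducible Cre recombinase driven by the *Myh11* promoter, and the mT/mG reporter, which turns on GFP in cells where Cre has acted. Tgfbr1/2iSMCKO mice carry both and also floxed alleles of both TGF-β receptor genes (Tgfbr1f/f.Tgfbr2f/f), so the receptors are deleted in the cells that turn green. GFPiSMC mice have no floxed alleles, and the mouse line and the deletion therefore cannot be told apart. All animals were male, of the C57BL/6J strain, and studied at 12 weeks of age, after tamoxifen for 5 days at 2 mg/d starting at 11 weeks, the adult course in the study's methods. The labels also name a course of 1 mg/d at 4 weeks, which the methods give for a subgroup with earlier induction. The design asks which genes differ when TGF-β receptors are lost, in which segment, and between segments.

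Classical cadherins bind the same cadherin on the next cell in a calcium-dependent manner and are tied to actin through β-catenin and α-catenin. A tryptophan near the amino terminus of one molecule docks into a pocket of its partner, and type I cadherins have one such residue, whereas type II cadherins have a pair. T-cadherin, encoded by *Cdh13*, has no transmembrane or cytoplasmic domain, is held in the membrane by a lipid anchor, and is a receptor for adiponectin in vascular cells. Clustered protocadherins are made by joining a variable exon to constant exons in the alpha and gamma clusters, while each beta gene is a single exon. The set that a cell expresses gives it an identity, best known from neurons. *Cdh5* (VE-cadherin) and *Pcdh12* are characteristic of endothelium, *Cdh1* (E-cadherin) of epithelium, *Cdh15* of skeletal muscle, and *Cdh19* of Schwann cells, so these 5 also serve here as signs of other cells.

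The difference between the cadherin types can be read from the coding sequence at the start of the mature protein. The first 15 codons after the furin-type cleavage site are shown for the leading type I cadherin, the leading type II cadherin, the pair of cadherins that differed between genotypes, and T-cadherin, with each tryptophan codon in capitals.
Cdh3: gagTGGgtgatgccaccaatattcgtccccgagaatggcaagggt
Cdh6: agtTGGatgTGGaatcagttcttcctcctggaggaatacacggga
Cdh11: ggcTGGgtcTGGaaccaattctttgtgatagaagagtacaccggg
Cdh5: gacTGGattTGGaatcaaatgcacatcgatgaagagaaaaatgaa
Cdh13: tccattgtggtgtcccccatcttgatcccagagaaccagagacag
Each run is coding-strand sequence, 5′ to 3′, from the GENCODE M21 transcripts on GRCm38. *Cdh3* lies in exon 4 of 16 (chr8:106536618-106536662, plus strand), *Cdh6* in exon 2 of 12 (chr15:13091674-13091718, minus strand), *Cdh11* in exon 3 of 13 (chr8:102679636-102679680, minus strand), *Cdh5* in exon 2 of 12 (chr8:104113034-104113078, plus strand), and *Cdh13* in exon 4 of 14 (chr8:118757416-118757460, plus strand). *Cdh3* has a tryptophan at codon 2 of the run, *Cdh6*, *Cdh11*, and *Cdh5* have one at codons 2 and 4, and *Cdh13* has 0 in the 15 codons.

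Counts are those that the authors deposited, and gene levels are in CPM (counts after scaling for library size) or, where genes are compared with each other, in CPM per kb of exon. Each library held 20467027 to 31392396 counts from 9208 to 20000 sorted cells. The summed level of 8 smooth muscle markers was 38539.9 to 53309.6 CPM, whereas markers of fibroblasts summed to 18.5 to 237, of endothelium to 54.5 to 108, of cardiac and skeletal muscle to 15.4 to 118, of mesothelium and epithelium to 8.68 to 84.9, of macrophages and leukocytes to 5.33 to 14.7, of Schwann cells and neurons to 3.68 to 8.56, of adipocytes to 62.8 to 136 (at most 1.36 without *Fabp4*), and of red cells to 0.0767 to 76.1 CPM. Smooth muscle markers, the tissue that the labels name, were thus far above those of other cell types in all 12 libraries. A count per gene does not show recombination, and neither *Tgfbr1* nor *Tgfbr2* passed the test between genotypes (adjusted p = 0.790 and 0.233). In a bulk sample, fewer cells of a type and less RNA per cell cannot be told apart. P-values over both segments measure the spread between libraries, since the same-numbered libraries of a genotype were taken as 2 segments of 1 animal and the fit treats them as independent. The fit on counts summed per animal does not, and its values are given where it changes a call. The tests between segments, and of the difference between them, also treat the 2 segments of 1 animal as independent. Sums per animal cannot address this.

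A pair of genes dominated the family. T-cadherin (*Cdh13*) was the most abundant member per length at 79.0 CPM per kb (mean of 12 libraries), followed by *Pcdh7*, a non-clustered protocadherin, at 34.8. Together they held 73.2 to 89.5% of the counts of all 93 members in a library, and the 93 members held 0.114 to 0.284% of all counts. The next members in order were *Pcdhgc3* at 5.85, the kidney-type cadherin *Cdh6* at 4.97, *Pcdhb17* at 2.64, *Pcdhb20* at 2.22, and *Pcdhgb4* at 1.93 CPM per kb. The place of *Pcdhgb4* rested on 1 library, at 112 CPM in ascending/arch SMCs of Tgfbr1/2iSMCKO animal 3 and at most 12.0 CPM in any other. *Pcdhgc3* ranged from 0.128 to 13.9 CPM per kb over the libraries, and both genes share exons with other gamma cluster genes. Among classical cadherins, the type II gene *Cdh6* was the highest, above the type I P-cadherin gene *Cdh3* (1.80 CPM per kb). The median gene, however, was lower in type II (0.0962) than in type I (0.412 CPM per kb). N-cadherin (*Cdh2*), the type I cadherin best known from SMC biology, was at only 0.412 CPM per kb. In CPM, the lowest *Cdh6* library (15.5) was above the highest *Cdh3* library (14.7), and *Cdh6* is 9.02 kb and *Cdh3* 4.38 kb long. Per kb the lowest *Cdh6* library, at 1.72, lay below the highest *Cdh3* library, at 3.35, so the ranges of these neighbors overlapped.

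**Figure D1:**
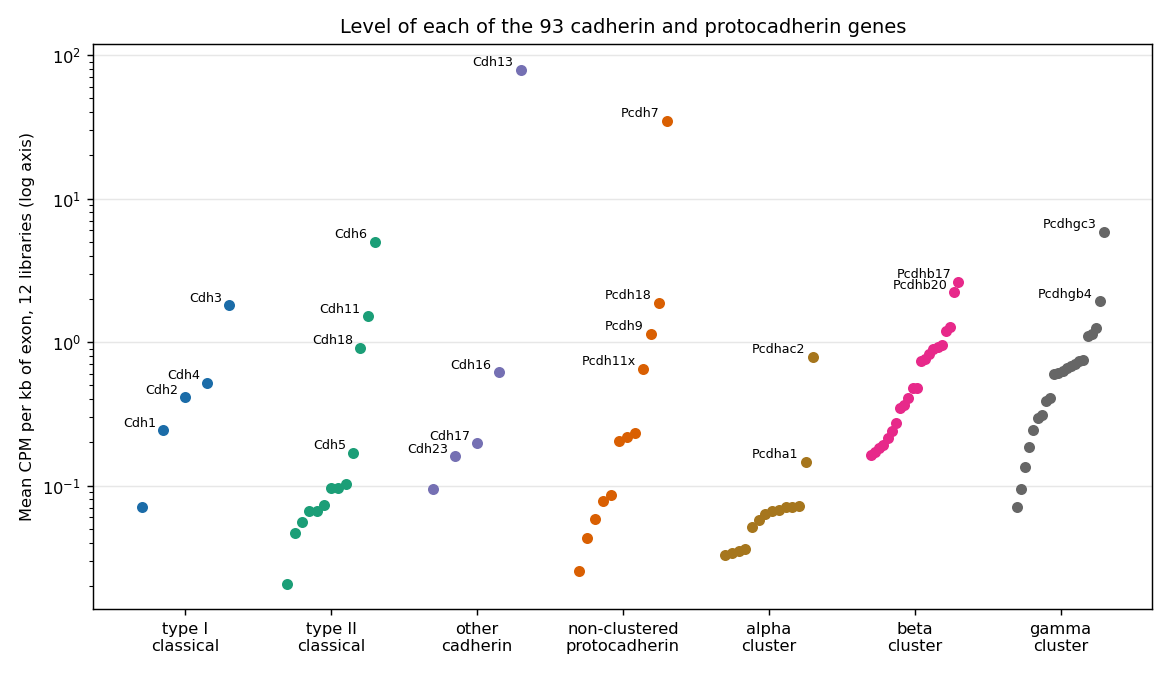
Mean level of each of the 93 genes over the 12 libraries, in CPM per kb of exon on a log axis, by class, with the leading genes of each class named. *Cdh13* (79.0) and *Pcdh7* (34.8) stand above every other member, the next being *Pcdhgc3* (5.85).

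Few members passed the test between genotypes. Of the 93 members, 86 passed the filter on low counts and were tested with edgeR among 22320 genes, and over both segments 2 of the 86 passed an adjusted p of 0.05. The share over all genes tested was 5.03%. Cadherin-11 (*Cdh11*) was lower and VE-cadherin (*Cdh5*) was higher in Tgfbr1/2iSMCKO SMCs, where 3.23% of all genes were lower and 1.8% were higher. Both changed by more than 2-fold, as did 2.67% of all genes. The other 84 tested members, including all 55 tested genes of the protocadherin clusters, did not pass, and DESeq2 likewise called 2 members, *Cdh11* and *Cdh5*, and 0 in the other classes. A further 6 members had an unadjusted p under 0.05 (8 in all, or 9.30% of 86, compared with 16.1% of all genes). These were *Pcdh7*, *Pcdh11x*, *Cdh7*, *Pcdhga9*, *Pcdhga1*, and *Pcdhgb6*. The median log2 fold change of the tested members was 0.05, and that of all genes was 0.04. By class it ran from −0.20 in the non-clustered protocadherins and −0.14 in type II cadherins to 0.17 in type I cadherins and 0.19 in the alpha cluster, and 39 of 86 members had a negative value. The 7 genes that were not tested, *Cdh9*, *Cdh15*, *Cdh19*, *Pcdh8*, *Pcdha2*, *Pcdha9*, and *Pcdhac1*, had at most 36 counts in any library.

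**Figure D2:**
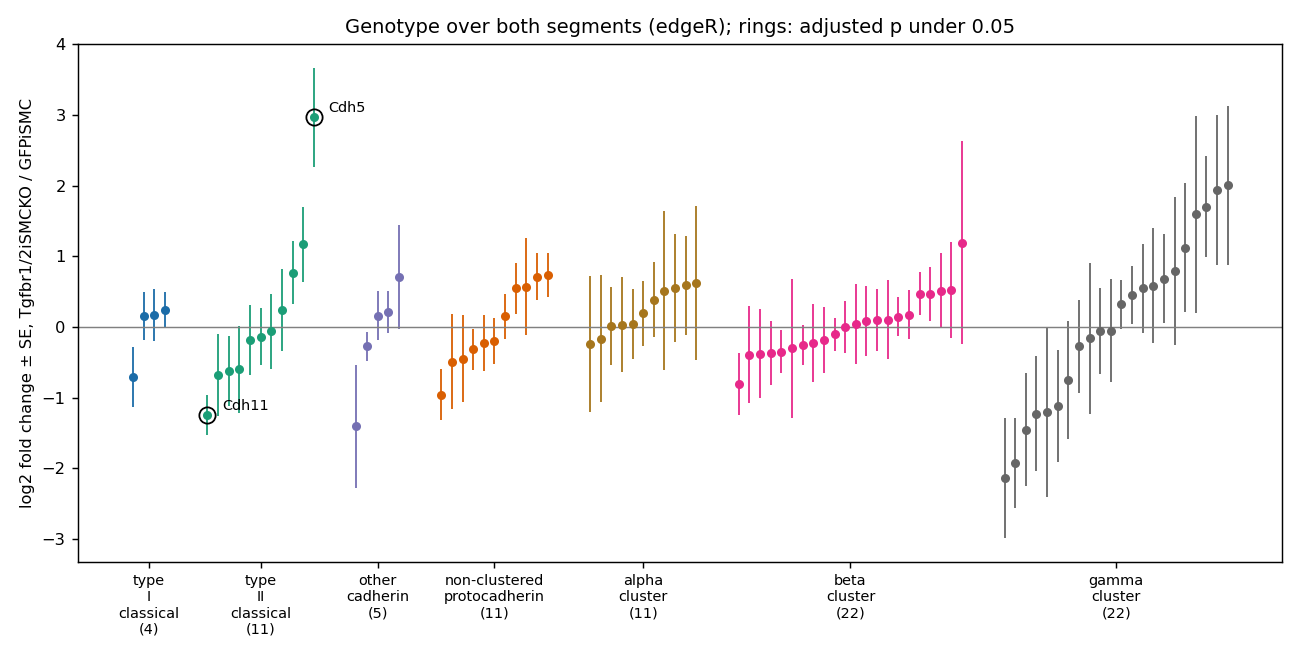
Log2 fold change of Tgfbr1/2iSMCKO against GFPiSMC over both segments for the 86 tested members, sorted within each class, with bars of 1 SE and the number tested in parentheses. Rings mark *Cdh11* (−1.25) and *Cdh5* (2.97), the members with an adjusted p under 0.05 by edgeR, and the gamma cluster has the widest spread of the other values, from −2.13 to 2.01.

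*Cdh11* encodes cadherin-11, a type II cadherin of mesenchymal cells (ENSMUSG00000031673.6; GRCm38 chromosome 8, 102632095 to 102785642, minus strand). In ascending/arch SMCs its level was 13.2, 10.3, and 10.7 CPM in the 3 GFPiSMC animals and 1.99, 3.01, and 7.31 CPM in the 3 Tgfbr1/2iSMCKO animals. In descending SMCs it was 21.4, 27.0, and 29.0 and 9.15, 14.6, and 13.9 CPM in the same order. Within each segment every Tgfbr1/2iSMCKO library lay below every GFPiSMC library, but the lowest GFPiSMC ascending/arch library was below 2 of the Tgfbr1/2iSMCKO descending libraries, so that the 6 and 6 libraries overlapped. The means were 11.4 ± 1.58 and 4.10 ± 2.83 CPM in ascending/arch and 25.8 ± 3.98 and 12.6 ± 2.98 CPM in descending SMCs (n = 3 animals, mean ± SD, as throughout), and the log2 fold change between genotypes was −1.25 (adjusted p = 0.0197, SE 0.28), or 2.38-fold lower. It was −1.47 (adjusted p = 0.127, SE 0.41) in ascending/arch and −1.04 (adjusted p = 0.339, SE 0.40) in descending SMCs, and the difference between those effects was 0.43 (adjusted p = 1.00, SE 0.57). *Cdh11* passed with DESeq2 (adjusted p = 0.000588) and limma-voom and a random effect for animal (0.0187), but not with counts summed per animal (0.126), without a segment term (0.207), or without any one of GFPiSMC animals 1, 2, and 3 (0.0816, 0.0778, and 0.0920) or Tgfbr1/2iSMCKO animals 1 and 2 (0.0766 and 0.0556). Over all alternatives run its log2 fold change stayed between −1.63 and −0.99.

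Fibroblasts also express *Cdh11*, and the 8 fibroblast markers, among them *Dcn* and *Lum*, summed to 99.8 to 150.5 CPM in ascending/arch GFPiSMC, 81.5 to 237 in ascending/arch Tgfbr1/2iSMCKO, 26.2 to 39.0 in descending GFPiSMC, and 18.5 to 42.1 CPM in descending Tgfbr1/2iSMCKO libraries. These sums overlapped between genotypes in each segment, and 0 of the 7 fibroblast markers tested passed between genotypes with edgeR (0 with an unadjusted p under 0.05, and 0 with DESeq2). Their sums were smaller in all descending than in all ascending/arch libraries, whereas *Cdh11* was higher in descending libraries within each genotype, and their part in the *Cdh11* result was not tested. *Pi16*, *Dpt*, *Clec3b*, and *Ly6a* were at 0 in at least 1 library.

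*Cdh5* encodes VE-cadherin, the cadherin of endothelial junctions (ENSMUSG00000031871.9; GRCm38 chromosome 8, 104101625 to 104144511, plus strand). Its counts were low throughout, at 14, 4, and 3 in ascending/arch and 0, 0, and 6 in descending GFPiSMC libraries and at 79, 30, and 22 and 12, 28, and 30 in Tgfbr1/2iSMCKO libraries. In CPM these were 0.513, 0.137, and 0.124 and 0, 0, and 0.241 in GFPiSMC and 2.71, 1.46, and 0.709 and 0.497, 1.15, and 1.01 in Tgfbr1/2iSMCKO SMCs. Every Tgfbr1/2iSMCKO library was above every GFPiSMC library of its segment. Across segments the highest GFPiSMC library (0.513 CPM) was just above the lowest Tgfbr1/2iSMCKO library (0.497 CPM). The log2 fold change was 2.97 (adjusted p = 0.0250, SE 0.70), and with 2 libraries at 0 its size rests on very few counts. It was 2.63 (adjusted p = 0.300, SE 0.97) in ascending/arch and 3.44 (adjusted p = 0.193, SE 1.09) in descending SMCs. *Cdh5* passed with DESeq2 (adjusted p = 0.000134) and with counts summed per animal (0.0365), but not with limma-voom and a random effect for animal (0.0794) or the replicate block (0.0505), nor without GFPiSMC animal 2 (0.105) or 3 (0.0656) or Tgfbr1/2iSMCKO animal 1 (0.120) or 2 (0.0659), and a filter at a mean of 50 counts removed it.

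Other endothelial genes were measured in the same libraries. *Pecam1* made up most of the signal at 44.4 to 95.7 CPM, and the other 7 markers (*Kdr*, *Tie1*, *Tek*, *Vwf*, *Cldn5*, *Emcn*, and *Egfl7*) summed to 6.20 to 11.6 CPM in ascending/arch GFPiSMC, 6.41 to 20.3 in ascending/arch Tgfbr1/2iSMCKO, 2.63 to 5.71 in descending GFPiSMC, and 9.85 to 13.4 CPM in descending Tgfbr1/2iSMCKO libraries. In descending SMCs the sums of these 7 did not overlap between genotypes, as for *Cdh5*. With *Pecam1* included, the sums of all 8 did overlap there, at 77.3 to 101.4 CPM in GFPiSMC and 82.5 to 94.7 CPM in Tgfbr1/2iSMCKO libraries. Of the 8 markers, 0 passed between genotypes with edgeR, 1 (*Vwf*) had an unadjusted p under 0.05 and was called by DESeq2, and 7 had a positive log2 fold change, with a median of 0.75. In descending SMCs alone, 3 of the 8 (*Tek*, *Tie1*, and *Vwf*) had an unadjusted p under 0.05, 0 passed with edgeR, DESeq2 called *Tek*, and the median was 1.04. *Emcn* was at 0 in at least 1 library. *Pcdh12*, an endothelial protocadherin, was at 0.880, 1.20, and 1.49 and 1.15, 0.701, and 1.00 CPM in ascending/arch and descending GFPiSMC and at 2.44, 1.21, and 0.967 and 2.11, 1.98, and 0.641 CPM in Tgfbr1/2iSMCKO libraries, with a log2 fold change of 0.55 (adjusted p = 0.549, SE 0.36). The part of endothelial RNA in the *Cdh5* result was not tested.

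**Figure D3:**
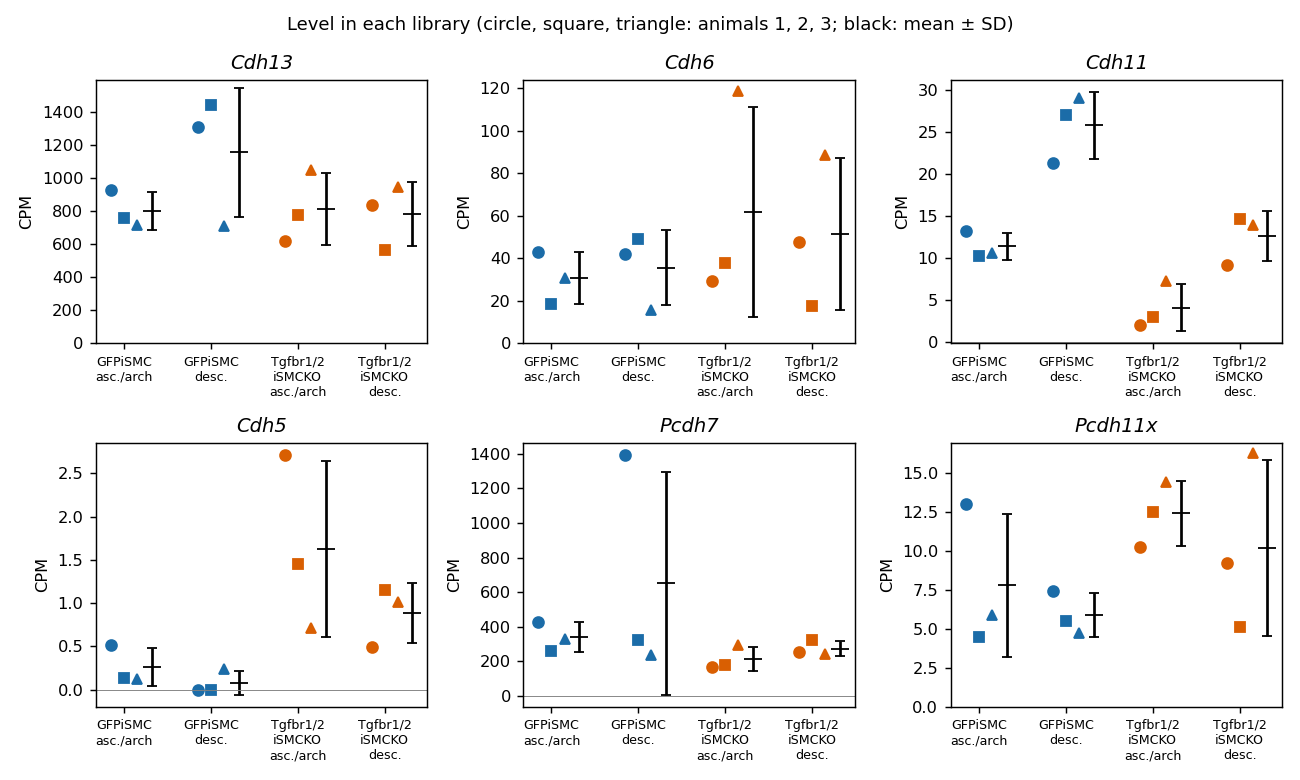
Level in CPM of 6 members in each of the 12 libraries by group, with GFPiSMC in blue, Tgfbr1/2iSMCKO in orange, a symbol for each animal number, and the mean ± SD of 3 animals in black. *Cdh11* is lower and *Cdh5* higher in every Tgfbr1/2iSMCKO library than in the GFPiSMC libraries of the same segment, whereas the other 4 genes overlap in at least 1 segment, and *Pcdh7* has 1 library far above the rest (1392 CPM).

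Of the 13 type II cadherins, 11 were tested and these 2 passed. *Cdh6*, the most abundant, was at 42.9, 18.4, and 30.6 CPM in ascending/arch and 42.1, 49.2, and 15.5 CPM in descending GFPiSMC SMCs. In Tgfbr1/2iSMCKO SMCs it was at 29.3, 37.6, and 119 and 47.7, 17.6, and 88.7 CPM. Both libraries of Tgfbr1/2iSMCKO animal 3 exceeded all others, and the remaining Tgfbr1/2iSMCKO libraries lay within the GFPiSMC range. The log2 fold change of 0.77 (adjusted p = 0.454, SE 0.44) turned to −0.01 without that animal. *Cdh18*, a cadherin of the nervous system, was at 6.06 ± 2.03, 3.01 ± 2.60, 3.33 ± 2.25, and 4.26 ± 1.89 CPM in GFPiSMC ascending/arch and descending and Tgfbr1/2iSMCKO ascending/arch and descending SMCs. *Cdh7* was at 0.762 ± 0.710, 0.502 ± 0.303, 1.27 ± 0.428, and 1.58 ± 0.991 CPM in that order (log2 fold change 1.17, unadjusted p = 0.0461, adjusted p = 0.296, SE 0.53). The other 8 members of the type had means under 1 CPM, and *Cdh19*, the Schwann cell cadherin, had 0 to 36 counts per library and was not tested.

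None of the 4 type I cadherins that were tested passed between genotypes with edgeR (0 of 4, and 0 with an unadjusted p under 0.05). *Cdh3*, encoding P-cadherin, was the highest, at 5.36 ± 0.474 and 9.22 ± 3.63 CPM in ascending/arch and descending GFPiSMC and 6.98 ± 0.925 and 9.97 ± 4.23 CPM in Tgfbr1/2iSMCKO SMCs. Its log2 fold change was 0.25 (adjusted p = 0.747, SE 0.25), and close to 0 without Tgfbr1/2iSMCKO animal 3. R-cadherin (*Cdh4*) was at 2.14 to 6.44 CPM over the libraries. N-cadherin (*Cdh2*), which joins SMCs to each other and to endothelium, was at 4.91, 4.36, and 2.73 and 4.22, 6.38, and 2.05 CPM in ascending/arch and descending GFPiSMC libraries. In Tgfbr1/2iSMCKO libraries it was at 3.71, 0.971, and 4.03 and 1.74, 0.948, and 3.81 CPM. The groups overlapped, and the log2 fold change was −0.70 (adjusted p = 0.490, SE 0.42). E-cadherin (*Cdh1*) was at 0.580 to 1.82 CPM, and the muscle cadherin *Cdh15* had 1 to 15 counts per library and was not tested. The 8 mesothelial and epithelial markers, whose cells express *Cdh1* and *Cdh3*, summed to 15.6 to 43.5 and 8.68 to 33.2 CPM in GFPiSMC and 34.1 to 84.9 and 23.0 to 53.9 CPM in Tgfbr1/2iSMCKO libraries (ascending/arch and descending). *Krt18* made up most of these sums, at 5.66 to 82.1 CPM with a log2 fold change of 1.02 (unadjusted p = 0.0382, adjusted p = 0.265, SE 0.44) between genotypes. The other 5 markers tested, among them *Msln*, *Upk3b*, and *Wt1*, each had a mean under 1 CPM and a negative log2 fold change, and the median over the 6 tested was −0.55. Of the 6, 0 passed with edgeR or DESeq2 and 2 (*Krt18* and *Krt19*) had an unadjusted p under 0.05. *Krt19*, *Krt8*, and *Epcam* were at 0 in at least 1 library, and the part of these cells in the *Cdh1* and *Cdh3* values was not tested.

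The 5 remaining cadherins differ from the classical ones in their cytoplasmic or membrane parts, and 0 of them passed with edgeR (0 with an unadjusted p under 0.05). T-cadherin (*Cdh13*; ENSMUSG00000031841.19; GRCm38 chromosome 8, 118283733 to 119324921, plus strand) was at 927, 759, and 713 CPM in ascending/arch and 1311, 1444, and 711 CPM in descending GFPiSMC SMCs. In Tgfbr1/2iSMCKO SMCs it was at 618, 775, and 1049 and 834, 566, and 945 CPM. The first and second descending GFPiSMC libraries were the highest of all 12, and the groups overlapped in both segments. The log2 fold change between genotypes was −0.27 (adjusted p = 0.626, SE 0.20), with 0.02 (adjusted p = 0.989, SE 0.28) in ascending/arch and −0.56 (adjusted p = 0.510, SE 0.28) in descending SMCs. *Cdh16*, a kidney cadherin, was at 1.36 to 3.69 CPM, *Cdh17*, an intestinal cadherin, at 0 to 1.94, *Cdh23*, which forms the tip links of hair cells with *Pcdh15*, at 0.806 to 5.11, and *Cdh26* at 0 to 1.40 CPM.

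Of the 12 non-clustered protocadherins, 11 were tested and 0 passed between genotypes with edgeR, while 2 had an unadjusted p under 0.05. *Pcdh7* (ENSMUSG00000029108.14; GRCm38 chromosome 5, 57717967 to 58133230, plus strand) was at 428, 257, and 330.2 CPM in ascending/arch and 1392, 321, and 239 CPM in descending GFPiSMC libraries. In Tgfbr1/2iSMCKO libraries it was at 166, 181, and 295 and 256, 323, and 242 CPM. The descending library of GFPiSMC animal 1 was more than 3 times above every other, and the groups overlapped in both segments. The log2 fold change over both segments was −0.96 (unadjusted p = 0.0211, adjusted p = 0.189, SE 0.37), and −0.25 (adjusted p = 0.701) without that animal. Antisense gene 4932441J04Rik overlaps 21.1% of the exon length of *Pcdh7*, and the library kit does not mark the strand, so reads of the pair cannot be told apart there.

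*Pcdh11x* was at 13.0, 4.46, and 5.91 and 7.44, 5.50, and 4.74 CPM in ascending/arch and descending GFPiSMC libraries and at 10.3, 12.5, and 14.5 and 9.23, 5.11, and 16.3 CPM in Tgfbr1/2iSMCKO libraries. The genotypes overlapped in both segments, and the log2 fold change was 0.73 (unadjusted p = 0.0346, adjusted p = 0.253, SE 0.31). *Pcdh9* was at 5.86 ± 2.69 and 5.90 ± 1.85 CPM in GFPiSMC and 9.04 ± 3.83 and 10.3 ± 5.61 CPM in Tgfbr1/2iSMCKO SMCs in the same order of segments (log2 fold change 0.71, adjusted p = 0.315, SE 0.33). *Pcdh18*, a protocadherin of mesenchymal tissues, was at 13.3 ± 6.33, 8.18 ± 2.10, 12.3 ± 9.13, and 6.68 ± 0.977 CPM in the 4 groups (log2 fold change −0.20, adjusted p = 0.871, SE 0.33). *Pcdh20* was at 0.146 to 2.68 CPM. The other members of the class, *Pcdh1*, *Pcdh8*, *Pcdh10*, *Pcdh12*, *Pcdh15*, *Pcdh17*, and *Pcdh19*, had means between 0.196 and 3.24 CPM.

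The clustered protocadherins lie side by side on chromosome 18, and 55 of the 58 were tested, of which 0 passed with edgeR and 3, all in the gamma cluster, had an unadjusted p under 0.05. The beta cluster had the most even sum. Its 22 genes summed to 67.0 to 73.4 CPM in ascending/arch and 77.1 to 97.7 CPM in descending GFPiSMC libraries, and to 67.3 to 87.9 and 66.4 to 71.1 CPM in Tgfbr1/2iSMCKO libraries. These are sums given as a description with no test, and they overlapped between genotypes in ascending/arch but not in descending SMCs. Per kb, the leading genes were *Pcdhb17* (2.64), *Pcdhb20* (2.22), *Pcdhb14* (1.26), *Pcdhb16* (1.19), and *Pcdhb22* (0.952 CPM per kb). *Pcdhb14* was at 11.6 ± 4.74, 11.2 ± 2.45, 10.8 ± 3.03, and 10.4 ± 2.29 CPM in the 4 groups, *Pcdhb20* at 3.02 to 12.9, and *Pcdhb16* at 2.19 to 11.2 CPM over the libraries. *Pcdhb17* was at 0 counts in the ascending/arch library of GFPiSMC animal 1 and the descending library of Tgfbr1/2iSMCKO animal 3 and at 213 to 623 counts in the other 10, and *Pcdhb21* was at 0 in 6 libraries and at 69 to 174 counts in the other 6, which included both libraries without *Pcdhb17* counts. The 3 beta genes with annotated overlap are *Pcdhb12*, *Pcdhb21*, and *Pcdhb22*.

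The alpha cluster was the lowest, with a summed level of 7.37 to 11.6 and 3.57 to 8.80 CPM in ascending/arch and descending GFPiSMC libraries and 8.69 to 12.4 and 7.34 to 11.7 CPM in Tgfbr1/2iSMCKO libraries. *Pcdhac2*, one of the C-type genes at its end, led at 0.791 CPM per kb and was the highest alpha gene in 11 of 12 libraries. It was at 5.10, 2.37, and 6.40 and 0.691, 6.80, and 2.53 CPM in GFPiSMC and 7.62, 2.52, and 10.4 and 2.03, 2.02, and 7.42 CPM in Tgfbr1/2iSMCKO libraries, which overlapped. *Pcdha1* followed at 0.146, then one of the 2 genes annotated as *Pcdha11* (ENSMUSG00000102206) at 0.0723, *Pcdha5* at 0.0706, and *Pcdha8* at 0.0705 CPM per kb. Of the 14 alpha genes, 9 had 0 counts in at least 1 library.

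The gamma cluster had the widest range of sums, 53.1 to 122 and 62.7 to 144 CPM in ascending/arch and descending GFPiSMC libraries and 100.4 to 179 and 24.8 to 148 CPM in Tgfbr1/2iSMCKO libraries, overlapping in both segments. Libraries differed in the gene that these counts were assigned to. *Pcdhgc3* was at 76.3, 31.7, and 0.702 and 52.7, 39.9, and 35.2 CPM in GFPiSMC and 19.0, 72.2, and 9.41 and 33.8, 1.81, and 13.4 CPM in Tgfbr1/2iSMCKO libraries. The genotypes overlapped for *Pcdhgc3* in ascending/arch but not in descending SMCs (35.2 against 33.8 CPM at the nearest), as for 14.9% of all genes. *Pcdhgc3* held the largest share in 6 libraries, with 27.7% to 72.0% of the gamma counts, and in the other 6 libraries 6 other genes led. Among Tgfbr1/2iSMCKO libraries it led only in the ascending/arch library of animal 2. *Pcdhgb4* had 3487 counts in the ascending/arch library of Tgfbr1/2iSMCKO animal 3 and at most 291 in any other. *Pcdhgb7* had 1384 counts in the ascending/arch library of Tgfbr1/2iSMCKO animal 1, *Pcdhgb6* had 941 in the descending library of the same animal, and *Pcdhgc5* had 1776 in the descending library of animal 3. *Pcdhga9* led with 338 counts in the ascending/arch library of GFPiSMC animal 3, where *Pcdhgc3* had 17, and *Pcdhga5* with 71 in the descending library of Tgfbr1/2iSMCKO animal 2. The 2 libraries of 1 animal did not share these leading genes, except *Pcdhgc3* in GFPiSMC animals 1 and 2.

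All 14 alpha and 22 gamma genes share exon sequence with other genes of their cluster. A count therefore cannot be assigned to 1 gene with certainty. Other annotated genes, on either strand, covered 48.6% to 93.0% of the exon length of an alpha gene and 31.5% to 100% of that of a gamma gene. The highest values include genes outside the clusters, such as *Gm38225* at *Pcdha4* (93.0%) and *Gm26672* at *Pcdhga10* (100%), both on the opposite strand. The median over genes of the ratio of the highest to the lowest library, among genes above 0 in all libraries, was 26.4 in the gamma and 12.8 in the alpha cluster, 10.5 in type II cadherins, 5.43 in the beta cluster, and 3.80 for non-clustered protocadherins. The median overlap is 0 in the last 3 of these classes, and the part of shared exons in the spread was not tested. The gamma genes with an unadjusted p under 0.05 between genotypes moved with single animals. *Pcdhga1* had a log2 fold change of −2.13 (unadjusted p = 0.0260, adjusted p = 0.214, SE 0.85) that became 0.46 without GFPiSMC animal 2, whose libraries held 686 and 273 of its counts. *Pcdhga9* had −1.92 (unadjusted p = 0.00979, adjusted p = 0.119, SE 0.64) and *Pcdhgb6* 1.70 (unadjusted p = 0.0327, adjusted p = 0.244, SE 0.71), which became −0.86 without GFPiSMC animal 3 and 0.49 without Tgfbr1/2iSMCKO animal 1. For *Pcdhgc3* it was −0.75 (adjusted p = 0.778, SE 0.83).

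**Figure D4:**
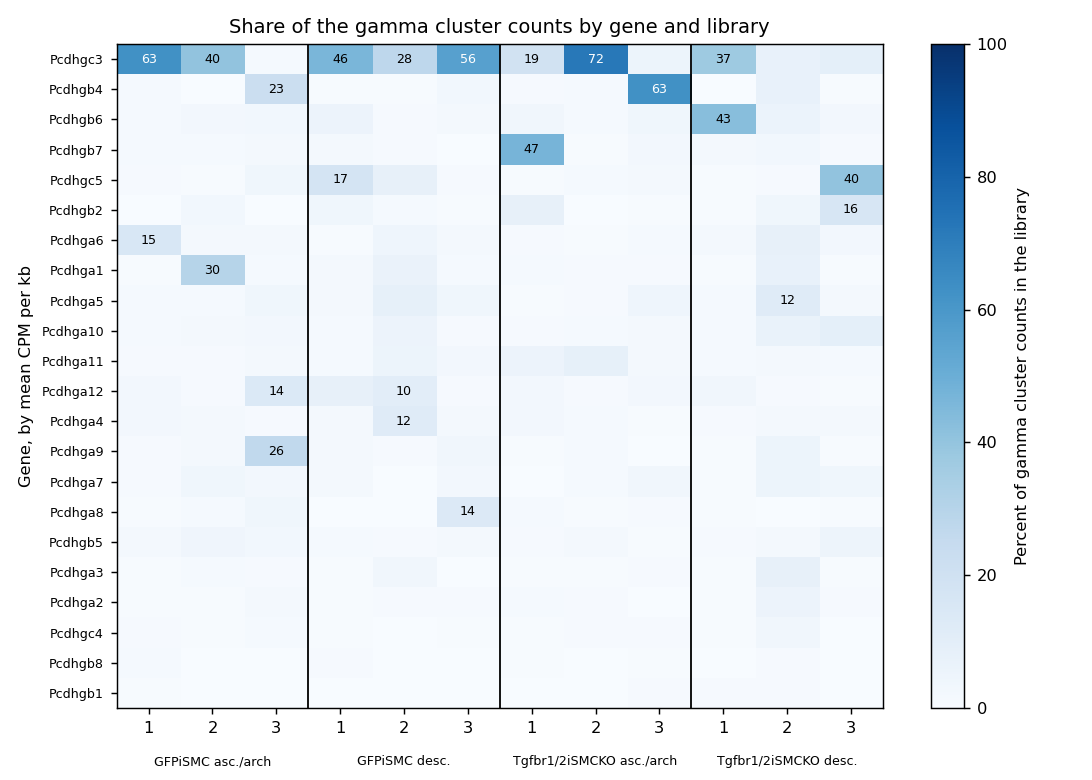
Percent of the gamma cluster counts of each library that were assigned to each of the 22 genes, with the 4 groups side by side and animals 1 to 3 in each, genes ordered by mean CPM per kb, and shares of at least 10% written in. *Pcdhgc3* leads in 6 libraries, and a different gene leads in each of the other 6.

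Within single segments and between segments, 0 of the 86 tested members passed with edgeR. For genotype in ascending/arch SMCs, 5 members (5.81%) had an unadjusted p under 0.05 with edgeR, compared with 11.4% of all genes. There edgeR called 1.41% of all genes, and DESeq2 called 3 members (*Cdh11*, *Pcdhga11*, and *Pcdhgb7*). For genotype in descending SMCs, 9 members (10.5%) had an unadjusted p under 0.05 with edgeR, compared with 10.7% of all genes. There edgeR called 1.72% of all genes, and DESeq2 called 2 members (*Cdh5* and *Pcdhb22*). The share of all genes that DESeq2 called is not given here. Genotypes did not overlap for 7 of 86 members in ascending/arch and 7 in descending SMCs, compared with 19.0% and 14.9% of all genes. *Cdh11* and *Cdh5* were the 2 members separated in 1 direction in both segments, compared with 6.14% of all genes, and 0 members were separated over all 6 and 6 libraries, compared with 4.39%.

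For the difference of the genotype effect between segments, 0 members and 0.0% of all genes passed with edgeR. An unadjusted p under 0.05 was found for 5 members (5.81%), compared with 2.95% of all genes. These were *Pcdha7*, *Pcdhb9*, *Pcdhb22*, *Pcdhga11*, and *Pcdhgb7*, all in the clusters, and DESeq2 called 1, *Pcdhga11*. *Pcdhga11* and *Pcdhb22* are described because of these values. *Pcdhga11* was at 1.10, 0.790, and 1.20 CPM in GFPiSMC and 5.77, 8.59, and 3.93 CPM in Tgfbr1/2iSMCKO ascending/arch libraries, which did not overlap. In descending SMCs it was at 1.38, 7.43, and 1.69 and 1.28, 0.536, and 2.23 CPM, which did, and the difference between the effects was −3.93 (adjusted p = 1.00, SE 0.95) by edgeR, with an adjusted p of 0.0489 by DESeq2. *Pcdhb22* was at 9.67, 11.7, and 6.43 CPM in GFPiSMC and 5.13, 1.57, and 1.48 CPM in Tgfbr1/2iSMCKO descending libraries, with a log2 fold change of −1.77 (adjusted p = 0.132, SE 0.50) by edgeR and an adjusted p of 0.0106 by DESeq2. Its neighbor *Pcdhb21* overlaps 6.9% of the *Pcdhb22* exon length. In the same libraries *Pcdhb21* was at 0, 2.42, and 0 CPM in GFPiSMC and 0, 3.30, and 5.87 CPM in Tgfbr1/2iSMCKO SMCs. The part of read assignment between these neighbors in the *Pcdhb22* values was not tested.

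Between descending and ascending/arch SMCs of GFPiSMC mice, edgeR called 0 members and 0.376% of all genes, and DESeq2 called 0 members. Neither fit paired the 2 segments of 1 animal. An unadjusted p under 0.05 was found with edgeR for 5 members (5.81%), compared with 5.98% of all genes. In Tgfbr1/2iSMCKO mice edgeR called 0 members and 0.112% of all genes, and DESeq2 called 1 member, *Cdh11*. With edgeR, 6 members (6.98%) had an unadjusted p under 0.05, compared with 3.68% of all genes. The *Cdh11* values of the descending libraries were all above those of the ascending/arch libraries in both genotypes. Its log2 difference (descending over ascending/arch) was 1.18 (adjusted p = 0.586, SE 0.40) in GFPiSMC and 1.61 (adjusted p = 0.348, SE 0.41) in Tgfbr1/2iSMCKO SMCs by edgeR, and the adjusted p in Tgfbr1/2iSMCKO SMCs was 0.0227 by DESeq2.

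The number of sorted cells varied between libraries, and some members changed with it. In the 4 libraries of at most 12000 cells *Cdh13* was at 945 to 1444 CPM, in the 3 libraries of 20000 cells at 566 to 759 CPM, and in the 5 libraries between at 711 to 927 CPM. *Cdh6* was at 42.1 to 119 CPM in the first of these sets and at 17.6 to 29.3 CPM in the libraries of 20000 cells. With the log2 number of cells as a further term in edgeR, a choice made after the data were seen, 18.0% of all genes and 7 of the 86 members (8.14%) changed with cell number at an adjusted p under 0.05. Per doubling of the cells, the log2 change was −0.98 (SE 0.13, adjusted p = 0.000761) for *Cdh13* and −2.19 (SE 0.32, adjusted p = 0.00101) for *Cdh6*. *Cdh3*, *Pcdh11x*, *Pcdhga5*, and *Pcdhgc5* were also lower and *Pcdh10* was higher with more cells. The cell numbers of the genotypes overlapped, at 9208 to 20000 in GFPiSMC and 11825 to 20000 in Tgfbr1/2iSMCKO libraries. The 4 libraries of at most 12000 cells were, however, from few animals. They were the descending libraries of GFPiSMC animals 1 and 2 (11088 and 9208) and both libraries of Tgfbr1/2iSMCKO animal 3 (11825 and 12000). Few cells thus coincided with the descending segment in GFPiSMC and with animal 3 in Tgfbr1/2iSMCKO mice.

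With cell number in the fit, 5 members passed between genotypes, compared with 12.2% of all genes. *Cdh11* was lower, with a log2 fold change of −1.21 (adjusted p = 0.0131), and *Cdh5* was higher, with 2.76 (adjusted p = 0.0216). *Cdh6* (1.00, adjusted p = 0.00800) and *Pcdh11x* (0.92, adjusted p = 0.0214) were higher and *Pcdhga9* (−2.13, adjusted p = 0.0494) was lower in this fit alone among the 16 alternatives run. The *Cdh13* value was −0.12 (adjusted p = 0.497). What else differs between sorts of few and many cells was not tested.

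**Figure D5:**
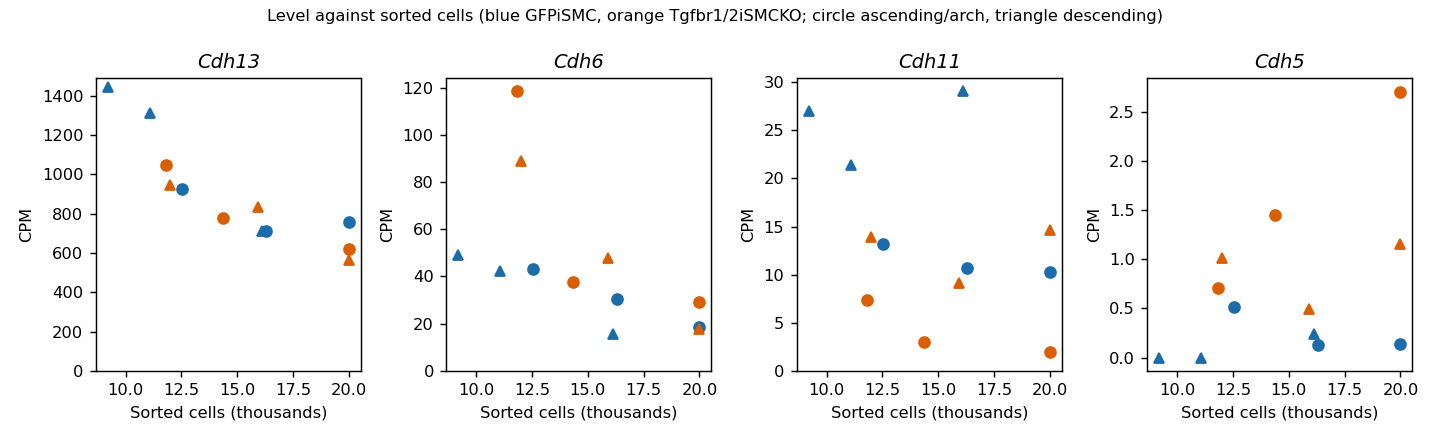
Level in CPM of *Cdh13*, *Cdh6*, *Cdh11*, and *Cdh5* in each library against the number of sorted cells, with GFPiSMC in blue, Tgfbr1/2iSMCKO in orange, circles for ascending/arch, and triangles for descending. *Cdh13* was at 1444 CPM in the GFPiSMC library of 9208 cells. In the libraries of 20000 cells, which are of both genotypes, it was at 566 to 759 CPM. Neither *Cdh11* nor *Cdh5* passed the test for cell number.

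The proteins that cadherins act through were described from fixed lists. Of 19 catenins and adherens junction adaptors, all tested, 3 were lower and 0 higher between genotypes over both segments at an adjusted p under 0.05, compared with 3.23% of all genes lower and 1.8% higher, and the median log2 fold change was −0.14. *Ctnnb1*, encoding β-catenin, which binds the tail of classical cadherins and also acts in Wnt signaling, was at 444, 499, and 442 and 517, 455, and 472 CPM in ascending/arch and descending GFPiSMC libraries and at 307, 313, and 288 and 311, 314, and 248 CPM in Tgfbr1/2iSMCKO libraries. All 6 Tgfbr1/2iSMCKO libraries lay below all 6 GFPiSMC libraries, and the log2 fold change was −0.67 (adjusted p = 0.000506, SE 0.09). *Wtip*, encoding a LIM protein that sits at cell junctions, was at 92.8 ± 8.30 and 113 ± 14.1 CPM in GFPiSMC and 37.0 ± 0.215 and 42.2 ± 2.38 CPM in Tgfbr1/2iSMCKO SMCs and was likewise separated (log2 fold change −1.37, adjusted p = 3.70e-06, SE 0.10). Vinculin (*Vcl*), which links α-catenin and integrin adhesions to actin, had a log2 fold change of −0.46 (adjusted p = 0.0164, SE 0.10), and its adjusted p was 0.167 with counts summed per animal, 0.104 with library size only, 0.0606 after a filter at a mean of 50 counts, and 0.0759, 0.0929, and 0.0768 without GFPiSMC animals 2 and 3 and Tgfbr1/2iSMCKO animal 1. *Ctnna1*, encoding α-catenin, was at 176 ± 16.2, 256 ± 92.8, 314 ± 187, and 318 ± 173 CPM in the 4 groups and did not pass (log2 fold change 0.57, adjusted p = 0.402, SE 0.30), and both libraries of Tgfbr1/2iSMCKO animal 3 were the highest, as for *Cdh6*.

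Among 24 relatives of the cadherin superfamily outside the name rule (Fat, Dachsous, Celsr, calsyntenin, desmosomal, and other genes), 19 were tested, 1 was lower, and 0 were higher, close to the 5.03% of all genes called, with a median log2 fold change of 0.08. *Fat1*, a giant atypical cadherin, was at 259, 283, and 262 and 283, 332, and 319 CPM in ascending/arch and descending GFPiSMC libraries and at 155, 157, and 164 and 180.1, 155, and 155 CPM in Tgfbr1/2iSMCKO libraries. The genotypes did not overlap over the 12 libraries, and the log2 fold change was −0.84 (adjusted p = 6.48e-05, SE 0.09). With edgeR, 0 of 11 proteases that cleave cadherins (0 with an unadjusted p under 0.05), 0 of 8 tested transcriptional repressors of cadherin genes (2 with an unadjusted p under 0.05), 0 of 13 regulators of the protocadherin clusters such as *Ctcf* (2), and 0 of 14 effectors of protocadherin signaling (1) passed. DESeq2 called 0 genes in each of these 4 lists, and among the relatives it called *Fat1* and also *Clstn1*.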

How the data were processed

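Bulk RNA-seq was measured in 12 libraries of GFP+ aortic SMCs, isolated by cold enzymatic digestion and sorting of viable single cells, with 3 animals per genotype and 2 segments per animal. The authors prepared cDNA with a low-input kit that does not mark the strand, aligned reads with HISAT2 to GRCm38, assembled and quantified them with StringTie on GENCODE M15, and used DESeq2. The deposited values are raw counts per gene. How the authors turned StringTie coverage into whole counts is not given in the sources used here, and it bears most on genes that share exons, such as the alpha and gamma protocadherins.

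From these counts, symbols were taken from the GENCODE M21 annotation (52403 of 52636 genes matched). Genes kept by filterByExpr were scaled by TMM and tested with edgeR's quasi-likelihood test (edgeR 4.0.16, R 4.3.3) on all 12 libraries, with a group for each genotype and segment for single contrasts and an additive model of genotype and segment over both segments. P-values were adjusted by Benjamini-Hochberg over all genes tested. CPM are TMM-scaled, and levels per kb use the union of annotated exons. Same-numbered libraries of 1 genotype were taken as 2 segments of 1 animal, which neither model blocks. Counts summed per animal address this for the genotype over both segments, but not for tests between segments. Alternatives were DESeq2 1.42.0, limma-voom and a random effect for animal (limma 3.58.1), other scalings and filters, sums per animal, a replicate block, no segment term, and each animal left out, and the number of sorted cells was added after the data were seen. The tests were checked on simulated data. The depth of 20467027 to 31392396 counts leaves several members under 10 counts per library, where counting error dominates.

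The members and lists were chosen with earlier results of these data known. Named with values were members that passed in any test, the 5 tested members of each class with the highest mean level per kb, members that mark other cell types, and list genes that passed. Members named for an unadjusted p, a DESeq2 call, a leading share of the gamma cluster, or the sorted cell number, and Ctnna1, were chosen after their values were seen. Sequences are from GENCODE transcripts.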

Additional observations from a re-analysis of the deposited data

How the results depend on the processing

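Over both segments, 2 members passed between genotypes, and 1 passed with a mean of at least 50 counts, limma-voom and a random effect for animal, counts summed per animal, the replicate block, or no segment term, against 5 with the number of sorted cells as a term and 0 to 2 when an animal was left out. For genotype, the replicate block pairs animals of the 2 genotypes that share only a number. For the segments and the difference between them, it instead holds a term for each animal. Deviations from the group means of same-numbered libraries across genotypes correlated at −0.200, 0.214, and 0.0208 in ascending/arch and 0.0228, −0.462, and −0.512 in descending SMCs. For the 2 segments taken as 1 animal they correlated at 0.184, −0.245, and 0.0287 in GFPiSMC and 0.0565, 0.377, and 0.665 in Tgfbr1/2iSMCKO mice. Both sets hold negative values, so this measure cannot show which libraries share an animal. In ascending/arch SMCs the count of 0 became 3 with DESeq2, 1 with the segment fitted alone, and 0 to 1 when an animal was left out, and in descending SMCs 2 with DESeq2 and 0 to 1 when an animal was left out. It became 1 with DESeq2 for the difference between segments and for the segments of Tgfbr1/2iSMCKO mice. The cause of these changes was not tested. With the number of sorted cells as a term, 12.2% of all genes passed between genotypes. For the other alternatives the share of all genes is not given here, so their counts are not a result about the members. The log2 fold change changed sign in 4 of 19 genes, each on leaving out 1 animal, *Cdh6* and *Cdh3* without Tgfbr1/2iSMCKO animal 3, *Pcdh18* without GFPiSMC animal 1, and *Pcdhga1* without GFPiSMC animal 2. Over the animals left out, it ranged from −0.0113 to 1.11 for *Cdh6*, from −0.0030 to 0.41 for *Cdh3*, from −0.63 to 0.11 for *Pcdh18*, and from −2.65 to 0.46 for *Pcdhga1*. *Ctnnb1*, *Wtip*, and *Fat1* passed in all 16 alternatives run. Members under 10 counts per library could not show moderate differences at this depth.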
